A study of Arabidopsis thaliana with 16 samples.

Results

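The 4 RBCS genes of the Arabidopsis thaliana nucleus encode the small subunit of Rubisco, and each was followed here in 16 RNA-seq libraries of 8 genotypes. The genes are RBCS1A (AT1G67090), RBCS1B (AT5G38430), RBCS2B (AT5G38420) and RBCS3B (AT5G38410). They were chosen by these identifiers, 4 of the 32548 genes in the deposited table, and all 4 passed the filter on low values. The family was selected on the mutant and wild-type values of this same table, so its levels, shares and differences are given as a description and carry no test.

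Rubisco fixes carbon dioxide in the Calvin-Benson cycle, the set of chloroplast reactions that turn it into sugar phosphates. The enzyme joins large subunits, made in the chloroplast from the rbcL gene, with small subunits that are made in the cytosol as precursors and imported. The small subunits stabilise the enzyme and tune its catalysis, and their genes are a textbook case of transcription switched on by light in green tissue, through promoter motifs such as the G-box and the I-box. The deposited values do not include the rbcL gene, so it was not analysed here.

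The libraries were made from total RNA of seedlings grown for 14 days on Murashige and Skoog plates with a day of 16 h light and 8 h darkness, and sequenced as single reads of 50 bases. The mutants were homozygous in HDA6 (hda6) or HDA19 (hda19), which encode histone deacetylases of the RPD3 type, or in genes whose mutants go by sant1, sant2, sant3 and sant4 together (sant1234), mbd1, mbd2 and mbd4 together (mbd124), esant1 and esant2 together (esant12), arid1 and arid4 together (arid14), or rxt3 alone. The wild type was Col-0, and each genotype had 2 libraries. The labels give neither the kind of allele nor whether replicate libraries stem from different batches of plants, so the spread between them, which all p-values below measure, may be technical.

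Each library held 19259579 to 19522197 reads assigned to genes. HDA19 mRNA stood at 0.136% of its wild-type level in hda19, MBD1 at 0.469%, MBD4 at 6.23% and MBD2 at 37.6% in mbd124, HDC1, the relative of yeast Rxt3, at 29.6% in rxt3, and ARID1 at 49.7% in arid14. ARID4 in arid14 (92.0%) and HDA6 in hda6 (113%) were near or above the wild-type level, so those mRNA levels do not check these labels, and the SANT and ESANT genes were not read. All 10 photosynthetic leaf markers and all 10 root markers were detected in every genotype, the samples being whole seedlings.

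The positions and sequences of the copies set how far their reads can be told apart, and so come before the values. RBCS1A lies alone on chromosome 1 at chr1:25048158-25049667. RBCS3B, RBCS2B and RBCS1B follow each other on chromosome 5 with no other gene of the table between them, at chr5:15376988-15378642, chr5:15380907-15382071 and chr5:15383167-15385320. All 4 genes are on the minus strand and have 3 coding exons in the TAIR10.1 RefSeq annotation, whose coordinates are used throughout.

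The coding sequence is 543 bases long in RBCS1A and 546 bases in each chromosome 5 copy, which gives precursor proteins of 180 and 181 residues. Coding identity was 96.7% to 97.3% among the chromosome 5 copies and 89.9% to 90.1% between each of them and RBCS1A. The encoded precursors differed at 4 to 6 residues among the chromosome 5 copies and at 14 to 17 residues from RBCS1A. The first coding exon, which holds the transit peptide for import, was the less alike part in every pair, with 85.4% to 95.9% identity against 92.0% to 98.4% in the other exons.

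Of all windows as long as a read in the annotated transcripts, 98.6% of those of RBCS1A, 86.1% of RBCS1B, 78.6% of RBCS2B and 85.4% of RBCS3B occurred in no other member. Within the coding sequence, windows found in 1 copy alone made up 96.4% for RBCS1A, and 48.1%, 62.0% and 57.5% for RBCS1B, RBCS2B and RBCS3B. No window was shared with a gene outside the family. How reads with several matching places were counted is not given in the sources used here, so values of the chromosome 5 copies carry that uncertainty and those of RBCS1A hardly any. The longest identical coding stretch of RBCS1B and RBCS3B, shown because reads from it cannot be told apart, spans 233 bases of spliced coding sequence on chromosome 5 (coding bases 304 to 536). Capitals mark the 3 bases at which RBCS2B differs, and RBCS1A differs from the stretch at 14 bases.
RBCS1B and RBCS3B: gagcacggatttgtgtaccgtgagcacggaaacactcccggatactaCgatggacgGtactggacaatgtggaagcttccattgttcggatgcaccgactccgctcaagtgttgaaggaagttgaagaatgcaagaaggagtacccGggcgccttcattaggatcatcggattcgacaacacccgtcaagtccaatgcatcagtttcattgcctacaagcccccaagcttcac

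The G-box (CACGTG) and the I-box (GATAAG) were searched on both strands in the 300 bases before each start codon, and no G-box overlapped an I-box. RBCS1A, RBCS2B and RBCS3B each had 1 G-box, at 259, 216 and 217 bases before the start codon. RBCS1B had none in this window. I-boxes numbered 2 in RBCS1A and in RBCS1B and 3 in RBCS2B and in RBCS3B. Windows of 30 bases that begin at the I-box farthest from the start codon show the difference in layout, with the motifs on the gene's strand in capitals. They lie at chr1:25049503-25049532 for RBCS1A, and at chr5:15385296-15385325, chr5:15382188-15382217 and chr5:15378517-15378546 for RBCS1B, RBCS2B and RBCS3B, and read on the minus strand as follows.
RBCS1A: GATAAGattcatggaattatcttcCACGTG
RBCS1B: GATAAGATAAGggtgtcaacacctttcctt
RBCS2B: GATAAGattatggagttttctgcCACGTGa
RBCS3B: GATAAGataatggagttttctgcCACGTGg

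In the 3 genes with a G-box, the motif followed the first I-box within the printed window, and the starts of the first and last I-box stood 53 bases apart in RBCS1A and 52 in both RBCS2B and RBCS3B. In RBCS1B the 2 I-boxes overlapped, 5 bases apart. Over 27443 genes with such a window, 6.28% had a G-box, 15.4% an I-box and 1.06% both, and 0.153% had a G-box with at least 2 I-boxes. A match is a description of the letters and does not show that a factor binds there. The annotated transcript starts lay 175 to 418 bases before the start codon in RBCS1A, 92 to 165 in RBCS1B, 93 in RBCS2B and 110 to 336 in RBCS3B. All of the 300 bases searched can thus be transcribed in RBCS1A and RBCS3B, and part of them in RBCS1B and RBCS2B.

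**Figure D1:**
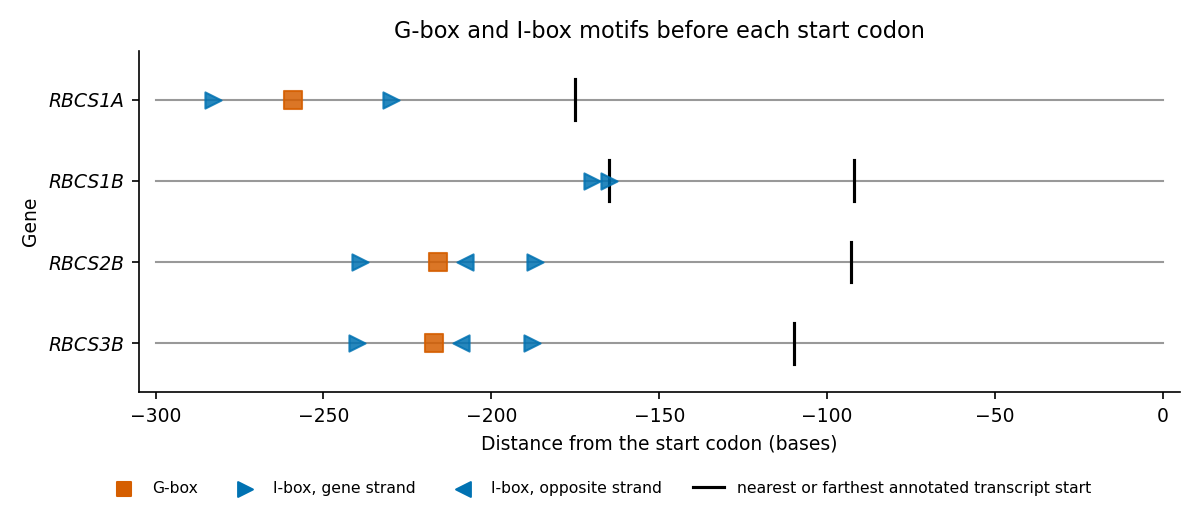
Position of G-box and I-box motifs (horizontal axis, bases from the start codon, which is at 0) in the 300 bases before the start codon of each RBCS gene (rows). Black bars are the nearest and farthest annotated transcript starts that fall in the window; RBCS1B is the copy with no square, and its 2 I-boxes overlap.

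The family was among the most abundant messages of the seedlings. Its 4 genes together took 1.49% to 2.08% of all reads in a library. RBCS1A ranked between place 1 and place 3 among all genes by deposited value in every library, RBCS3B between 6 and 17, RBCS2B between 26 and 57 and RBCS1B between 120 and 291. Per kilobase of coding sequence the copies kept the order RBCS1A, RBCS3B, RBCS2B, RBCS1B in all 16 libraries. In wild type their shares per coding kilobase averaged 64.3%, 19.9%, 11.7% and 4.08%, close to the shares of the deposited values, since the coding lengths are nearly equal.

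Divided by the number of windows found in 1 copy alone, the same order held in 14 of 16 libraries. In wild type RBCS2B then made up 19.4% and RBCS3B 18.6% of the sum, so which of these 2 copies was the more abundant depended on how length was counted. Shares below are percentages of the summed deposited values in a library. Exact binomial (Clopper-Pearson) 95% intervals of a share from the recovered reads spanned at most 0.346 percentage points for RBCS1A, 0.134 for RBCS1B, 0.226 for RBCS2B and 0.297 for RBCS3B, and they cover counting error only.

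RBCS1B, the scarcest copy, was the one whose level stood apart from wild type in every mutant. Its value was 11535 and 11036 in hda6, 12273 and 9941 in hda19, 11554 and 11675 in sant1234, and 10744 and 10485 in mbd124. It was 7951 and 8457 in esant12, 8116 and 7346 in arid14, and 9403 and 9230 in rxt3, against 14501 and 14220 in wild type. All 14 mutant libraries lay below both wild-type libraries. Among all 20846 genes tested, 7.55% had every mutant library below both wild-type libraries and 3.62% had every one above.

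The mean of RBCS1B was 53.8% of wild type in arid14, 57.1% in esant12, 64.9% in rxt3, 73.9% in mbd124, 77.35% in hda19, 78.6% in hda6 and 80.9% in sant1234. The ranges of arid14 and esant12 overlapped, as did those of hda19 with hda6 and with mbd124. The other neighbours in this order did not overlap, but the hda19 range also held both sant1234 libraries. RBCS1B made up 2.45% ± 0.0987 of the family in esant12, 2.56% ± 0.0209 in arid14, 2.67% ± 0.0645 in rxt3 and 2.87% ± 0.00366 in mbd124. It made up 2.95% ± 0.169 in hda6, 2.997% ± 0.0336 in sant1234 and 3.09% ± 0.158 in hda19, against 4.09% ± 0.0843 in wild type (SD, n = 2 each). The share lay below both wild-type libraries in all 7 mutants on the deposited values, and recovered reads gave the same shares. It also lay below them per coding or exon kilobase and per window found in 1 copy alone. Those bases divide each copy by the same length in every library, so they are no separate checks.

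The ratio of RBCS1A to RBCS1B within a library, which does not depend on the scaling of libraries, ran from 20 to 27.6 over the mutants and from 15.6 to 15.8 in wild type. The ratio of RBCS3B to RBCS1B, both in the chromosome 5 array, ran from 6.70 to 9.03 in the mutants and from 4.75 to 5.02 in wild type. The 2 genes share the identical stretch printed above, and the part of reads assigned to the wrong copy in these ratios was not tested.

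RBCS3B, the most abundant chromosome 5 copy by coding length, took a larger share of the family in each mutant than in wild type. Its value was 87568 and 73904 in hda6, 86874 and 75222 in hda19, 87106 and 89531 in sant1234, and 81441 and 82675 in mbd124. It was 71773 and 71663 in esant12, 70698 and 60528 in arid14, and 79728 and 82314 in rxt3, against 72843 and 67578 in wild type. The values of hda6, hda19, sant1234, mbd124 and rxt3 lay above both wild-type libraries, and those of esant12 and arid14 overlapped them. With 2 libraries on each side, such an order arises often without any difference. How many of all genes show it in a single mutant was not counted, here or for RBCS1A, RBCS2B and the total below.

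The share of RBCS3B was 21.05% ± 0.661 in hda6, 21.4% ± 0.0945 in esant12, 21.7% ± 1.03 in arid14 and 22.2% ± 0.590 in mbd124. It was 22.6% ± 0.0897 in hda19, 22.8% ± 0.0187 in sant1234 and 23.3% ± 0.270 in rxt3, against 19.98% ± 0.372 in wild type (SD, n = 2 each). Both libraries of every mutant lay above both of wild type in share, also in the arid14 seedlings, where the level itself averaged 93.5% of wild type. The largest difference in share, 3.27 percentage points, was that of rxt3.

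RBCS1A carried most of the family in every library, with shares between 61.9% and 66.9%. Its value was 271862 and 240186 in hda6, 245502 and 216540 in hda19, 236935 and 243770 in sant1234, and 237666 and 231214 in mbd124. It was 219638 and 221920 in esant12, 200754 and 189532 in arid14, and 217208 and 218651 in rxt3, against 229139 and 221582 in wild type. The levels of hda6, sant1234 and mbd124 lay above both wild-type libraries, those of arid14 and rxt3 below both, and those of hda19 and esant12 overlapped wild type.

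In level, arid14 was lowest, at 86.6% of the wild-type mean, and hda6 highest, at 114%. Neighbours in the order from hda6 through sant1234, mbd124, hda19 and wild type to esant12 all overlapped. The share of RBCS1A was 66.8% ± 0.0634 in hda6 and 66.0% ± 0.263 in esant12, both above wild type, at 64.2% ± 0.690. It was 62.0% ± 0.0941 in sant1234, 62.6% ± 0.393 in rxt3 and 63.4% ± 0.222 in mbd124, all below wild type (SD, n = 2 each), and it overlapped wild type in arid14 and hda19.

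RBCS2B, the middle copy of the chromosome 5 array, divided the mutants. Its value was 36025 and 33962 in hda6, 38866 and 32243 in hda19, 34423 and 33316 in esant12, and 35523 and 31111 in arid14. It was 46884 and 47693 in sant1234, 44120 and 41254 in mbd124, and 39338 and 40885 in rxt3, against 43296 and 39285 in wild type. The values of hda6, hda19, esant12 and arid14 lay below both wild-type libraries, at 84.75%, 86.1%, 82.0% and 80.7% of the wild-type mean. Those of sant1234 lay above, at 115%, and those of mbd124 and rxt3 overlapped wild type.

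RBCS2B made up 9.15% ± 0.429 of the family in hda6, 9.89% ± 0.339 in hda19, 10.12% ± 0.268 in esant12 and 11.03% ± 0.347 in arid14. Its share was 12.2% ± 0.0792 in sant1234, 11.5% ± 0.364 in mbd124 and 11.5% ± 0.188 in rxt3, against 11.7% ± 0.403 in wild type (SD, n = 2 each). Although RBCS2B and RBCS3B stand side by side, the ratio of RBCS3B to RBCS2B was 2.18 to 2.43 in hda6 and 1.86 to 1.88 in sant1234, against 1.68 to 1.72 in wild type. It was above both wild-type libraries in each of the 7 mutants, which share those 2 wild-type libraries.

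**Figure D2:**
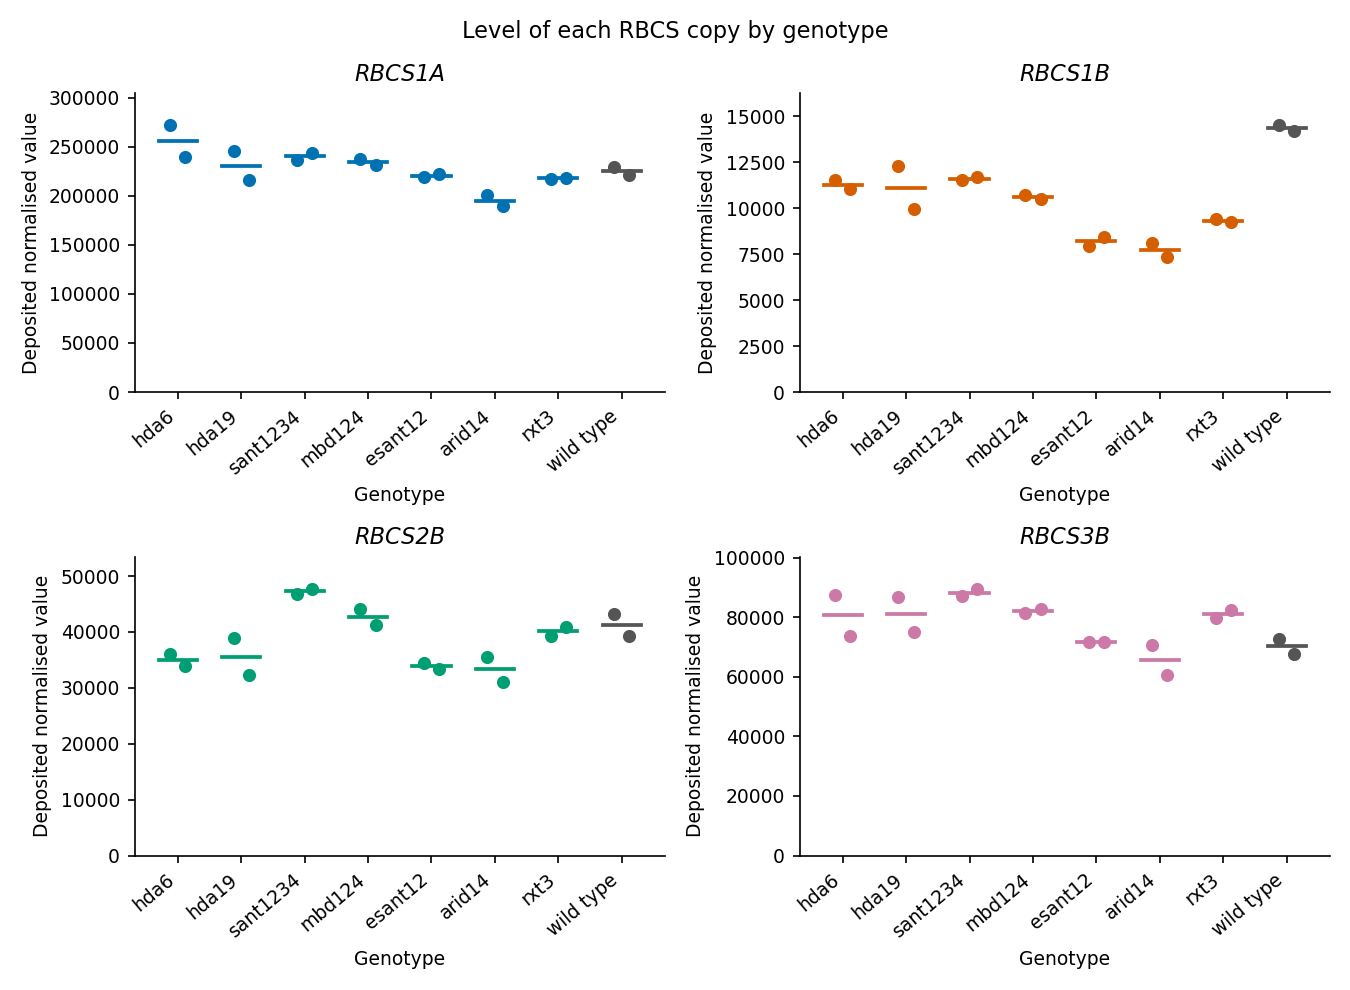
Deposited normalised value of each RBCS copy (vertical axes, from 0) in the 7 mutants and wild type (horizontal axes). Points are libraries and bars the mean of 2 libraries; for RBCS1B all mutant points lie between 7346 and 12273, below the wild-type points at 14501 and 14220.

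**Figure D3:**
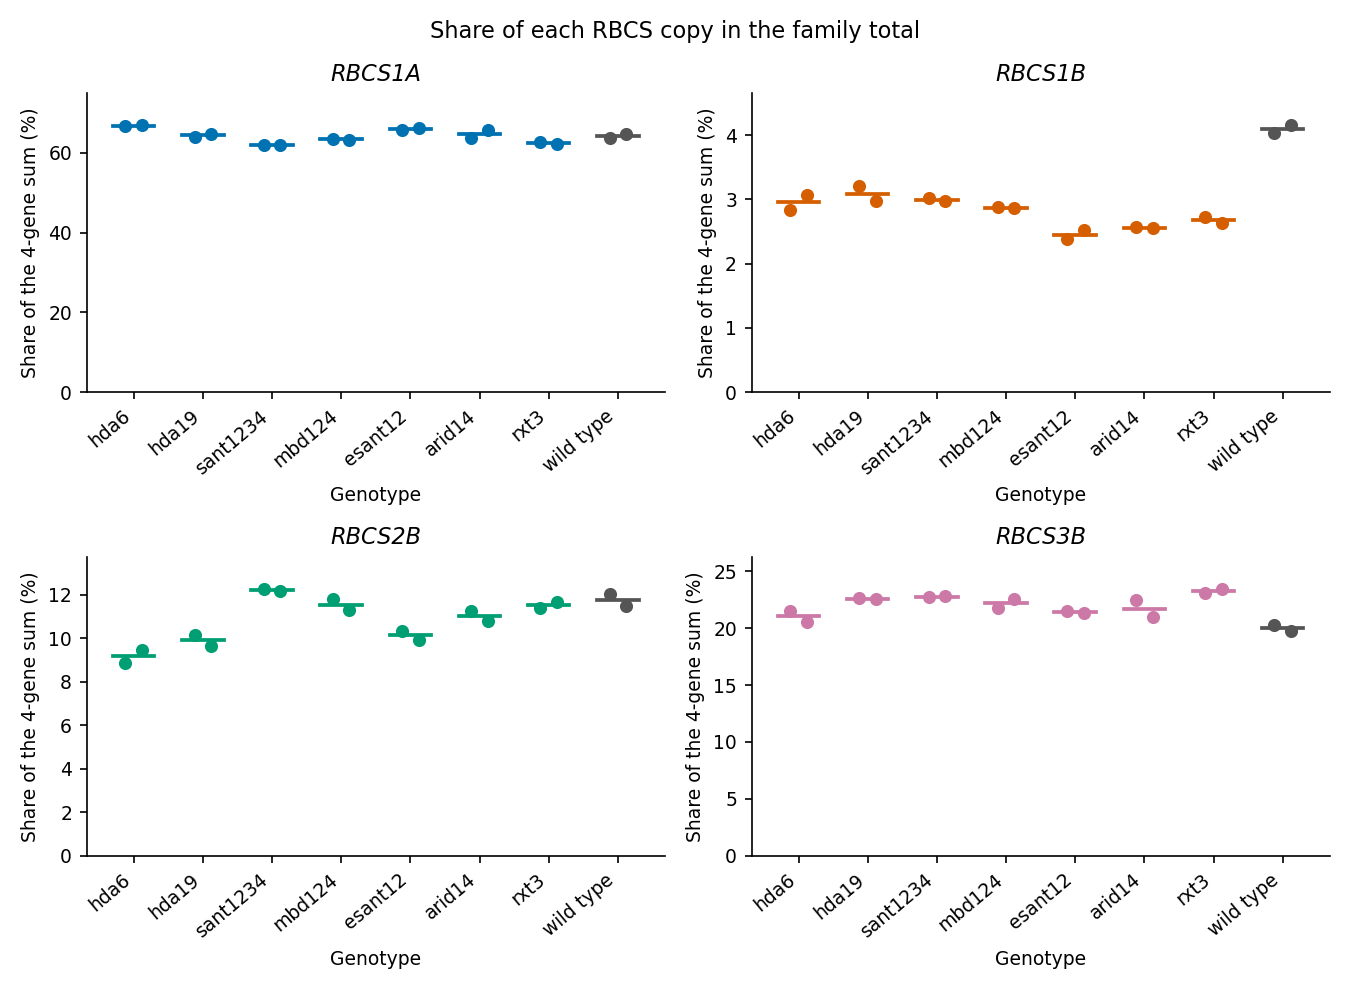
Share of each RBCS copy in the summed value of the 4 genes (vertical axes, percent, from 0) by genotype (horizontal axes), with points for libraries and bars for means of 2 libraries. The RBCS1B share is 2.38% to 3.20% over the mutants and 4.03% to 4.15% in wild type, while the RBCS3B share is 20.6% to 23.45% over the mutants and 19.7% to 20.2% in wild type.

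The summed level of the family ran from 85.9% to 110% of wild type over the mutants. The total was 406990 and 359088 in hda6, 383516 and 333946 in hda19, 382479 and 392669 in sant1234, and 373971 and 365628 in mbd124. It was 333785 and 335355 in esant12, 315091 and 288516 in arid14, and 345677 and 351079 in rxt3, against 359779 and 342665 in wild type. The totals of sant1234 and mbd124 lay above both wild-type libraries, those of esant12 and arid14 below both, and those of hda6, hda19 and rxt3 overlapped wild type.

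On the log2 scale the total differed from wild type by -0.22 in arid14, with SDs of 0.090 in arid14 and 0.050 in wild type over 2 libraries each, and by 0.14 in sant1234, with an SD of 0.027. These are 85.9% and 110% of wild type. In the other 5 mutants the difference ran from -0.07 to 0.12. In whole seedlings, fewer cells that express a gene and less of its RNA per cell cannot be told apart.

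The summed value of the 10 leaf markers, genes of light harvesting, photosystems, chlorophyll synthesis and carbonic anhydrase, was 689463 to 893608 over the mutant libraries, against 621628 and 654179 in wild type. In sant1234 and mbd124 both this sum and the family total lay above both wild-type libraries. In esant12 and arid14 the sum lay above them and the family total below. The family total equalled 34.4% to 37.7% of the sum in arid14, 37.7% to 41.7% in esant12, 41.85% to 45.65% in mbd124, 46.4% to 47.4% in rxt3 and 47.1% to 50.6% in sant1234. It equalled 48.4% to 51.1% in hda19 and 50.4% to 52.8% in hda6, against 55% to 55.1% in wild type.

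The sum was carried by the light-harvesting genes. Of the 10 leaf markers, 7 were called higher and 0 lower in esant12 (70% and 0% beside 11.5% and 14.3% of all genes). The counts were 6 and 1 (60% and 10%) in sant1234 (beside 8.53% and 11.3%), mbd124 (4.73% and 5.27%) and arid14 (15.1% and 17.2%). In hda6 they were 4 and 0 (40% and 0% beside 11.2% and 12.5%). In hda19 they were 3 and 2 (30% and 20% beside 14% and 16.2%). In rxt3 they were 4 and 3 (40% and 30% beside 22.3% and 24.9%). Some calls were lost without at least 1 library, among them all in hda6. LHCB1.3, the most abundant, averaged 229722 ± 2154 in arid14 and 207395 ± 4075 in rxt3, against 132652 ± 5296 in wild type (SD, n = 2 each), and was called higher in each mutant by limma (adjusted p under 0.05). Its call was lost in hda6 without hda6 replicate 1 or either wild-type library, and in sant1234 without sant1234 replicate 1 or wild-type replicate 2. CHLH, a subunit of the enzyme that puts magnesium into chlorophyll precursors, was called lower in hda19, arid14 and rxt3. It averaged 40248 ± 838 in rxt3, against 60620 ± 94.9 in wild type (limma, adjusted p = 1.6e-05). HEMA1, which acts at the start of the same pathway, was called lower in hda19, sant1234, mbd124 and rxt3, a call that held in sant1234 alone with each library left out. The carbonic anhydrase gene CA1 was called lower in rxt3 (limma, adjusted p = 0.028), a call lost without rxt3 replicate 1 or wild-type replicate 1.

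Summed root markers came to 36414 and 37933 in rxt3, 31721 to 34017 in esant12 and 29003 to 31636 in hda19, against 24507 to 26277 in wild type, and to 23713 to 27924 in the other mutants. Most of this sum was 1 gene, the beta-glucosidase PYK10, which averaged 34331 in rxt3, 30317 in esant12 and 27681 in hda19, against 22695 in wild type. Single root markers went in both directions. In rxt3, 4 of 10 were called higher and 2 lower (40% and 20% beside 22.3% and 24.9% of all genes). In hda19 these were 3 and 2 (30% and 20% beside 14% and 16.2%), and in esant12, 2 and 1 (20% and 10% beside 11.5% and 14.3%). Besides PYK10, those higher in rxt3 were EXPA7 (1.01 ± 0.183 log2), PHT1;1 (0.69 ± 0.095) and CASP1 (0.47 ± 0.12). SCR, a transcription factor of root patterning, was at -0.63 ± 0.075 log2 in rxt3, -0.51 ± 0.075 in arid14, -0.31 ± 0.075 in hda19 and in esant12, and -0.29 ± 0.075 in hda6. It was called lower in each of these, while SHR, which acts with it, was called lower in rxt3 and hda19. Without at least 1 library, the SCR calls in hda6, hda19 and esant12 and the SHR and PYK10 calls in hda19 were lost. So were those of CASP1 in rxt3, EXPA7 in hda19 and NRT2.1 in esant12. The part of tissue make-up in the RBCS values was not tested.

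Fitted log2 fold changes with standard errors, from limma over all genes and all libraries, set the copies on one scale. RBCS1B stood at -0.90 ± 0.079 in arid14, -0.81 ± 0.079 in esant12, -0.62 ± 0.079 in rxt3 and -0.44 ± 0.079 in mbd124. It stood at -0.38 ± 0.079 in hda19, -0.35 ± 0.079 in hda6 and -0.31 ± 0.079 in sant1234. RBCS1A ranged from -0.21 ± 0.102 in arid14 to 0.18 ± 0.102 in hda6. RBCS2B ranged from -0.31 ± 0.090 in arid14 to 0.20 ± 0.090 in sant1234, and RBCS3B from -0.10 ± 0.1 in arid14 to 0.33 ± 0.1 in sant1234.

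The threshold for a call in this fit was an adjusted p (Benjamini-Hochberg) under 0.05. The members were selected on these contrasts, so their calls are given as a description. Nothing is read from a call of a member or from how many were called. RBCS1B was called lower in each mutant, RBCS2B lower in esant12 and arid14, and RBCS3B higher in sant1234, while RBCS1A was called in none. In hda6, where 11.2% of all genes were called higher and 12.5% lower, 0 of the 4 copies were called higher and 1 lower. In hda19 the background was 14% higher and 16.2% lower, and the copies 0 and 1. In sant1234 the background was 8.53% and 11.3%, and the copies 1 and 1. In mbd124 it was 4.73% and 5.27%, and the copies 0 and 1. In esant12 it was 11.5% and 14.3%, and the copies 0 and 2. In arid14 it was 15.1% and 17.2%, and the copies again 0 and 2. In rxt3 it was 22.3% and 24.9%, and the copies 0 and 1.

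**Figure D4:**
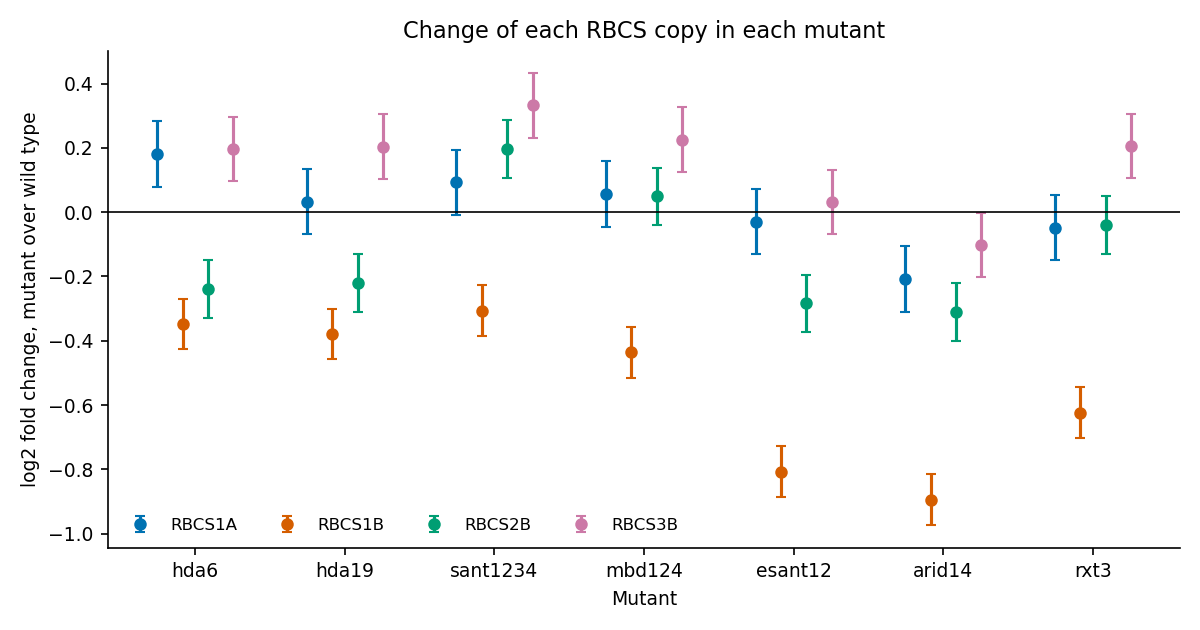
Fitted log2 fold change of each RBCS copy, mutant over wild type (vertical axis), in each of 7 mutants (horizontal axis). Points are limma estimates from 2 libraries per genotype and bars 1 standard error on each side; RBCS1B is the lowest of the 4 copies in every mutant, from -0.31 to -0.90.

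Over the 16 libraries the copies of the family varied together to different degrees. The Pearson correlation of log2 values was 0.78 between RBCS1A and RBCS3B, 0.66 between RBCS2B and RBCS3B, 0.64 between RBCS1A and RBCS1B and 0.59 between RBCS1B and RBCS2B. It was 0.44 between RBCS1A and RBCS2B and 0.40 between RBCS1B and RBCS3B, the pair with the longest identical stretch. These are descriptions over libraries that share genotypes, scaling and, for the chromosome 5 copies, part of their sequence.

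By the same measure, the genes most like the family total were AT3G11630, annotated as a thioredoxin superfamily protein (r = 0.89), AT5G01030 (0.88), AAE18, an acyl-activating enzyme (0.85), AGO6, an Argonaute protein (0.84), and AT3G48420, a haloacid dehalogenase-like hydrolase (0.84). Those most like RBCS1B were AK-HSDH II, an aspartate kinase-homoserine dehydrogenase (0.97), YLMG1-1 (0.94) and OMR1, a threonine deaminase (0.94). RBCS1A was most like AT3G11630 (0.87), GDC1 (0.86) and the gene of DNA polymerase lambda (0.86). RBCS2B was most like AT3G48420 (0.89), RAPTOR2 (0.88) and AT5G43870 (0.85), and RBCS3B most like AT5G47030, an ATPase delta/epsilon subunit (0.83), AT2G18465 (0.83) and AAE18 (0.81). AT3G48420 is the gene CBBY, a member of the list named Rubisco assembly below.

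The genes that flank the copies could be tested to different degrees at the 2 loci, so their responses cannot be compared between the loci. Of the 6 nearest genes around the chromosome 5 array, 5 had 0 to 11 reads in all 16 libraries together and were not tested. The sixth, CYP735A1, a cytokinin hydroxylase, averaged 13.45 in wild type and was called in no mutant. Around RBCS1A, ABA4, needed for neoxanthin synthesis, was called lower in 4 mutants, down to -0.71 ± 0.062 log2 in esant12 (limma, adjusted p = 5.9e-06). DIN9 was called lower in arid14 (-0.50 ± 0.154 log2) and rxt3 (-0.57 ± 0.154). Both DIN9 calls were lost without at least 1 library, and that in arid14 also with DESeq2. CYP735A2 was called higher in rxt3 (1.33 ± 0.253 log2), and AT1G67060 and LBD40 were called in no mutant. The unnamed AT1G67105, which begins at chr1:25057479, differed most. It was called higher in 4 mutants, by 4.85 ± 0.246 log2 in hda6 (limma, adjusted p = 2.2e-08), and lower in 2, by -1.82 ± 0.246 in rxt3 (adjusted p = 4e-05). RBCS1A stood at 0.18 and -0.05 log2 in these same mutants. In sant1234, ABA4 was not called under DESeq2 or without either sant1234 library or wild-type replicate 2, and the higher call of AT1G67105 in mbd124 was lost without wild-type replicate 2 (limma, adjusted p = 0.053). The lower call of AT1G67105 in esant12 was lost without esant12 replicate 1 or wild-type replicate 1, and also with edgeR (adjusted p = 0.11), with DESeq2 (0.097) and with no filter (limma, 0.06).

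A list named Rubisco assembly was tested, though not all of its genes assemble the enzyme themselves. It holds 17 genes, all read in the table. They include the chaperonins that fold the large subunit (CPN60 and CPN20), the assembly factors RAF2, RBCX and BSD2, and MRL1, which stabilises rbcL mRNA. In arid14, 13 of 17 fell, or 76.5% of the list beside 17.2% of all genes tested. In rxt3, 11 fell (64.7% beside 24.9%), in esant12, 10 (58.8% beside 14.3%) and in hda19, 9 (52.9% beside 16.2%). In hda6 and in sant1234, 7 fell (41.2% beside 12.5% and 11.3%), and in mbd124, 4 (23.5% beside 5.27%). The members that rose numbered 1 each in hda6, esant12 and rxt3 and 0 in the other 4. The median log2 fold change was -0.43 in arid14 and -0.37 in rxt3 and lay between -0.16 and -0.29 in the rest, beside medians of all genes between -0.01 and 0.01. The mutants share their 2 wild-type libraries, so these counts are not independent of each other.

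The chaperonin subunit CPN60A1 fell in each of the 7 mutants. It averaged 8872 ± 286 in arid14, 9510 ± 414 in rxt3 and 9582 ± 207 in esant12, against 13914 ± 408 in wild type (SD, n = 2 each). That is -0.65 ± 0.067, -0.55 ± 0.067 and -0.54 ± 0.067 log2 (limma, Benjamini-Hochberg adjusted p = 6.6e-06, 1.7e-05 and 8e-05). Its partner CPN60B2 fell in the 7 mutants as well, most in arid14, to 2281 ± 68.0 against 4189 ± 75.7 in wild type (limma, adjusted p = 1.4e-05). CPN20 and MRL1, named after their values were seen, were likewise called lower in each mutant. MRL1 fell most in rxt3, to 2131 ± 6.03 against 3365 ± 140 in wild type (limma, adjusted p = 1.4e-06). RBCX2 fell to 1483 ± 162 in rxt3, against 2440 ± 116 in wild type (adjusted p = 1.9e-06). Its paralogue RBCX1 rose there, to 107 ± 12.3 against 52.8 ± 7.24 in wild type (limma, adjusted p = 0.00072). It also rose 1.59-fold in esant12, a call lost with DESeq2 and without esant12 replicate 1 or wild-type replicate 1.

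Of these calls, that of CPN60A1 held in every mutant with each library left out. CPN60B2 lost its call without replicate 2 in hda6 (limma, adjusted p = 0.11), hda19 (0.057) and mbd124 (0.072). The call of CPN20 was lost in hda6 with edgeR and DESeq2 (adjusted p = 0.053 each). It was also lost in hda6 without hda6 replicate 2 or either wild-type library (limma, adjusted p of 0.071 to 0.24), and in hda19 without hda19 replicate 2 (0.15) or wild-type replicate 1 (0.11). It was lost in sant1234 without any 1 library of sant1234 or wild type (0.061 to 0.14), and in mbd124 without mbd124 replicate 2 (0.099) or wild-type replicate 1 (0.093). MRL1 lost its call in hda6 without hda6 replicate 2 (0.12) or wild-type replicate 2 (0.077), and in mbd124 without mbd124 replicate 1 (0.051) or wild-type replicate 2 (0.065). The count of members that fell was 1 in hda6 without hda6 replicate 2 and 3 without either wild-type library, and in sant1234 it was 3 without sant1234 replicate 2 and 4 without either wild-type library. It was 2 in mbd124 without mbd124 replicate 2 and 6 in esant12 without esant12 replicate 1. The gene that rose in hda6, CPN10-1, lost its call without hda6 replicate 1 or either wild-type library, and 1 gene rose in arid14 without arid14 replicate 2.

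Other enzymes of the Calvin-Benson cycle, together with the CP12 proteins and Rubisco activase, were tested as a list of 20 genes, all read. In arid14, 14 of them fell, or 70% of the list beside 17.2% of all genes, and 1 rose (5% beside 15.1%). In rxt3, 12 fell (60% beside 24.9%) and 3 rose (15% beside 22.3%). In hda19, 7 fell (35% beside 16.2%) and 2 rose (10% beside 14%), and in esant12, 5 fell (25% beside 14.3%) and 1 rose (5% beside 11.5%). In the other 3 mutants the shares were near those of all genes. There, 3 fell and 2 rose in sant1234 (15% and 10% beside 11.3% and 8.53%), 2 fell and 2 rose in hda6 (10% each beside 12.5% and 11.2%), and 1 fell and 0 rose in mbd124 (5% and 0% beside 5.27% and 4.73%). The median log2 fold change was -0.32 in arid14 and -0.27 in rxt3, and -0.04 to -0.12 in the others. The RBCS total itself lay below wild type in arid14 and overlapped it in rxt3.

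CP12-2, a small protein that links 2 enzymes of the cycle in the dark, fell in 6 mutants, to 2957 ± 43.3 in rxt3 against 5029 ± 75.0 in wild type (limma, adjusted p = 8.2e-07). Its call was lost in sant1234 without any 1 library of sant1234 or wild type (adjusted p of 0.057 to 0.089), and in esant12 without esant12 replicate 2 (0.057). The aldolase FBA1 fell to 25645 ± 165 in rxt3, against 40180 ± 124 in wild type (limma, adjusted p = 1.6e-06). RPI3, a ribose-phosphate isomerase, fell to 2274 ± 143 in arid14, against 3502 ± 82.5 in wild type (limma, adjusted p = 1.6e-05). Transketolase showed both directions. TKL1 was called lower in 6 mutants, most in arid14 (1.45-fold) and 1.22-fold in esant12 (limma, adjusted p = 1.1e-05 and 0.0026). The scarcer TKL2 was called higher in 4 mutants, most in rxt3. It rose there to 1393 ± 149, against 658 ± 49.9 in wild type (limma, adjusted p = 4.7e-07). In esant12 TKL2 stood at -0.17 log2 and was not called. Both genes lost their calls in hda6 and in sant1234 without at least 1 library. Rubisco activase, RCA, which frees Rubisco of bound inhibitors and is named here after its values were seen, fell in arid14 and in rxt3. Its value was 185187 ± 7856 in arid14 and 177301 ± 11151 in rxt3, against 227665 ± 1472 in wild type (limma, adjusted p = 0.029 and 0.0067). The call was lost in arid14 without any 1 library of arid14 or wild type (adjusted p of 0.06 to 0.15), and in rxt3 without rxt3 replicate 1 (0.053). The count that fell in hda19 was 3 without hda19 replicate 2, and in esant12 it was 3 without either esant12 library or wild-type replicate 1. In hda6, 1 fell and 1 rose without hda6 replicate 2 or either wild-type library. In sant1234, 1 rose without any 1 of its libraries or of wild type, 1 fell without replicate 1 of either genotype and 0 fell without replicate 2 of either. The gene lower in mbd124, RPI3, lost its call without any 1 library of mbd124 or wild type, and the gene higher in arid14, CP12-3, without either arid14 library or wild-type replicate 1.

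Regulators of light-driven transcription were tested as 20 of a list of 21, ABI4 having no reads. Here genes moved in both directions. In arid14, 8 rose and 8 fell, or 40% of the list each way beside 15.1% and 17.2% of all genes. In esant12, 8 rose and 5 fell (40% and 25% beside 11.5% and 14.3%), and in mbd124, 5 rose and 3 fell (25% and 15% beside 4.73% and 5.27%). In hda19, 4 rose and 7 fell (20% and 35% beside 14% and 16.2%), and in sant1234, 4 rose and 5 fell (20% and 25% beside 8.53% and 11.3%). In hda6, 3 rose and 5 fell (15% and 25% beside 11.2% and 12.5%). In rxt3, 1 rose and 8 fell (5% and 40% beside 22.3% and 24.9%), so that genes called higher were a smaller share of the list than of all genes there. HYH, a bZIP factor that binds G-box type motifs together with its homologue HY5, fell in each mutant with each library left out. Its value was 279 ± 9.01 in arid14 and 443 ± 6.31 in esant12, against 798 ± 28.1 in wild type (limma, adjusted p = 1e-07 and 4.1e-05). HY5 fell in the mutants other than rxt3, to 226 ± 9.03 in sant1234 against 329 ± 8.75 in wild type (limma, adjusted p = 0.00072). The call of HY5 was lost in mbd124 without mbd124 replicate 1 (0.066) or wild-type replicate 1 (0.063). In hda19 it was lost without hda19 replicate 1 (limma, adjusted p = 0.1) or wild-type replicate 1 (0.073) and with DESeq2 (0.12).

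GNC, a GATA factor of chloroplast development, fell to 785 ± 4.82 in hda19, against 1424 ± 177 in wild type (limma, adjusted p = 6.3e-06). PIF4, a phytochrome-interacting factor, rose to 3798 ± 77.4 in esant12, against 2179 ± 26.5 in wild type (limma, adjusted p = 4.3e-07). GBF1, a G-box binding factor, rose to 1895 ± 203 in arid14, against 1189 ± 35.1 in wild type (limma, adjusted p = 3.2e-05). The photoreceptor gene PHYA rose there to 6202 ± 620, against 3300 ± 400 in wild type (limma, adjusted p = 4.2e-06). RBCS1B, with no G-box in the window searched, and the 3 copies with one all stood in seedlings where these factors had changed, and the part of any factor in the RBCS values was not tested. Some of these counts rested on single libraries. Those that rose numbered 1 in hda6 without wild-type replicate 1, 3 in mbd124 without mbd124 replicate 2, and 2 in mbd124 without wild-type replicate 1. They numbered 5 in esant12 without esant12 replicate 1 or wild-type replicate 1, 0 in rxt3 without rxt3 replicate 2 and 2 in rxt3 without wild-type replicate 2. Those that fell numbered 3 in hda6 without hda6 replicate 2, 4 in hda19 without hda19 replicate 2 and 1 in mbd124 without mbd124 replicate 1.

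**Figure D5:**
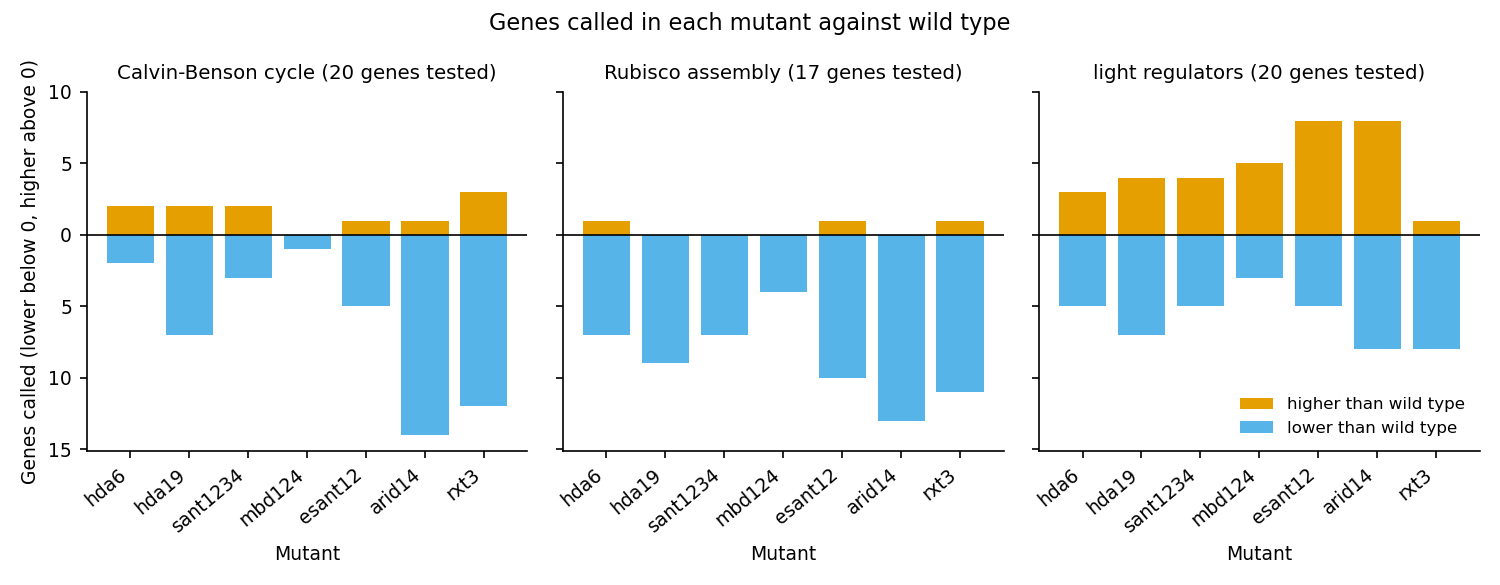
Number of list genes called higher (above 0) or lower (below 0) than wild type (vertical axis) in each mutant (horizontal axis), at a limma adjusted p under 0.05, for 3 lists that hold no RBCS gene. The most genes fell in arid14 among Calvin-Benson (14 of 20) and assembly genes (13 of 17), and light regulators were called in both directions in each mutant.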

How the data were processed

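RNA-seq of 16 seedling libraries, 2 for each of 8 genotypes, was used as deposited. The submitters' processing notes name HISAT2 2.1.0, featureCounts, edgeR and the TAIR10 build as what the authors used. Their options, the annotation and whether counting used strand are not given in the sources used here. The deposited values are a normalised signal per gene and library. In 100% of values above 0 they matched, within a relative tolerance of 1e-06, what edgeR's quantile adjustment gives for a whole read count, with a common dispersion of 0.003375. Recovered this way, libraries held 19259579 to 19522197 reads, and 5616 of 32548 genes had no read. That adjustment scales libraries to a common size, so differences in the amount of RNA per plant are lost.

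The values were tested as log2(value + 1) with limma 3.58.1 with a trend (R 4.3.3), in 1 fit of the 16 libraries without a block, for the 20846 genes that reached a value of 10 in 2 or more libraries, and p-values were adjusted by Benjamini-Hochberg over all of them. Fold changes are on that scale, which understates the change of low genes. Alternatives were a pseudocount of 0.1, no filter, edgeR 4.0.16 and DESeq2 1.42.0 on the recovered reads, a replicate block, each library left out, and, for shares, 4 other bases. The fit was first checked on simulated counts. Because the labels number the libraries of each genotype 1 and 2, pairing was checked: deviations of same-numbered libraries correlated between -0.09 and 0.12 over 28 pairs of genotypes, 3 of them over 0.1, so the numbers were not taken as pairs.

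The members and the gene lists were chosen with earlier results of these data known. List genes named are up to 2 called genes per list, mutant and direction with the largest change, of which the text prints a selection. The 3 table genes nearest on each side of each locus were also read, and those with too few reads to test are not named. The 5 genes most like the family total and the 3 most like each copy by Pearson correlation are named. Sequences, coordinates and gene names are from the RefSeq annotation of TAIR10.1. Where a gene has several coding isoforms, the one nearest in length to the only coding sequence of RBCS1B was used.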

Additional observations from a re-analysis of the deposited data

How the results depend on the processing

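The log2 fold changes of the family total and of each copy were set against the larger SD of the 2 genotypes compared. They moved by less than that SD under recovered reads scaled by TMM or by DESeq2 size factors and under a pseudocount of 0.1. By design the replicate block cannot move them, and leaving out 1 of 2 libraries cannot move them by more than that SD. Those 2 settings are therefore no check of this kind. The fold changes of RBCS1B kept their direction, but several small differences did not. For RBCS1B this was fixed when a library was left out, since its mutant and wild-type values do not overlap. The total in hda19 (0.027) was -0.072 without hda19 replicate 1 and -0.008 without wild-type replicate 2, and that in rxt3 (-0.011) was 0.024 without wild-type replicate 1, 0 without rxt3 replicate 1 and 0.004 with DESeq2 size factors. RBCS1A in hda19 (0.033) was -0.057 without hda19 replicate 1. RBCS2B in mbd124 (0.049) was -0.021 without wild-type replicate 2 and 0 without mbd124 replicate 1, and in rxt3 (-0.04) it was 0.03 without wild-type replicate 1. RBCS3B in esant12 (0.032) was -0.022 without wild-type replicate 2, and in arid14 (-0.101) it was 0.011 without arid14 replicate 2. Under the replicate block the family total stood at -0.22 in arid14 and 0.142 in sant1234, and the block moved 1 list count by over 1.5 times, that of Calvin-Benson genes lower in mbd124, which was 3. Averaged over 16 libraries, shares moved beyond the spread where length was counted otherwise: per kilobase of annotated exons RBCS1B had 1.97%, RBCS2B 14.7% and RBCS3B 19.5%, and per window found in 1 copy alone RBCS1A had 59.4%, RBCS1B 2.15%, RBCS2B 18.1% and RBCS3B 20.4%. These settings divide by other lengths. With no filter, 0 Calvin-Benson genes were lower in mbd124 and 0 assembly genes higher in hda6. With edgeR, 2 Calvin-Benson genes were lower in mbd124 and 2 higher in esant12, 1 assembly gene was higher in hda19 and 2 light regulators were higher in rxt3. With DESeq2, Calvin-Benson genes numbered 1 higher in sant1234, 2 lower in mbd124 and 0 higher in arid14, assembly genes 0 higher and 4 lower in hda6 and 0 higher in esant12, and light regulators 4 lower in hda19; the cause was not tested. Leaving out 1 library, with the lone library assumed to vary like the other groups, gave these lowest and highest counts. For Calvin-Benson genes they were 1 and 2 higher and 1 and 2 lower in hda6, 3 and 9 lower in hda19, 1 higher and 0 to 1 lower in sant1234, 0 lower in mbd124, 3 and 4 lower in esant12, and 0 and 1 higher in arid14. For assembly genes they were 0 and 1 higher and 1 and 6 lower in hda6, 3 and 5 lower in sant1234, 2 and 3 lower in mbd124, 0 and 1 higher and 6 and 9 lower in esant12, and 0 and 1 higher in arid14. For light regulators they were 1 and 4 higher and 3 and 5 lower in hda6, 4 and 5 lower in hda19, 2 and 6 higher and 1 and 2 lower in mbd124, 5 and 7 higher in esant12, and 0 and 2 higher in rxt3. Of 105 calls of list and flanking genes followed through the settings, leaf and root markers not counted, 35 were lost without at least 1 library and none changed direction.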
